A study of Mus musculus and synthetic construct with 15 samples.

Results

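The regions described here are 848 negative controls of an enhancer screen in the newborn mouse heart, out of 3820 regions in all. Each is a stretch of 400 bp of the mouse genome whose identifier starts with ESC-Neg or ESC_Neg and which the study's count table puts in its group Neg. The labels do not spell out the prefix (ESC is the usual short form of embryonic stem cell). Another 97 regions with the same prefix are in other groups of that table and were not taken as members. In the screen, a pool of such regions was packaged in AAV9, an adeno-associated virus that transduces heart muscle well, and given to wild-type pups at postnatal day 0. At postnatal day 7 the atria and the ventricles were collected, and the labels give cardiomyocytes as the cell type. The reporter RNA was counted in 5 atrial and 5 ventricular libraries (atrial RNA 1 to 5 and ventricular RNA 1 to 5), and the AAV9 library itself, with no tissue, in 5 libraries of viral DNA (DNA 1 to 5). Both RNA groups carry the same wild-type genotype and were given the AAV9 library, and the labels do not say whether all pups and all DNA libraries had the same virus preparation. The labels do not say whether a library is 1 pup or a pool, nor whether the 5 libraries of a group came from separate animals, so the p-values measure the spread between these libraries, which may be technical. The counts cover designed regions only and hold no marker genes, so the cell type of a library cannot be checked in them, and fewer transduced cells cannot be told apart from less RNA per cell. Binding of factors in heart was not measured in these files, so the name of the controls was not checked against binding.

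Enhancers are stretches of DNA that raise transcription of a gene when the right transcription factors are bound. In a massively parallel reporter assay, many candidate stretches drive the same reporter in the same cells, and the RNA each one yields is compared with how much of its DNA was present. Negative controls in such an assay are regions picked because no activity is known in the cell type under study, and their spread shows how far RNA and DNA can part without a known enhancer. Heart muscle enhancers are commonly bound by GATA4, TBX5, MEF2, NKX2-5 and TEAD factors, whereas OCT4 (encoded by Pou5f1) and ESRRB act in the pluripotent state of embryonic stem cells.

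Of the controls, 7 overlap a promoter window of RefSeq (build GRCm38.p6, the same build as the mm10 coordinates used here), and 4 hold such a window whole. The 250 bases upstream of the gene start are given for these 4 because they are the stretches of control sequence that could be read here, and because 3 of the 4 gave less RNA than DNA. Capitals mark a match, on either strand, to the TEAD letters GGAATG or the TBX5 letters AGGTGT, and the same search found no MEF2 motif, none of the letters AGATAA bound by factors of the GATA family, no NKX2-5 motif of the letters CACTTGA, no octamer of the letters ATGCAAAT and no ESRRB motif of the letters TCAAGGTCA in any of them.
Camk1d, in ESC-Neg-511-0, chr2:5675934-5676333, minus strand: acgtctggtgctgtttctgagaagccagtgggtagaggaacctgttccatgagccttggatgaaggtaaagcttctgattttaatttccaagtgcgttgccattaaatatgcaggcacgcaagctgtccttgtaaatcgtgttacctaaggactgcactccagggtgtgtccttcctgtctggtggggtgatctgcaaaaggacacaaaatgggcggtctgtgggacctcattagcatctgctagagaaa
Dnmt3l, in ESC-Neg-541-0, chr10:78055056-78055455, plus strand: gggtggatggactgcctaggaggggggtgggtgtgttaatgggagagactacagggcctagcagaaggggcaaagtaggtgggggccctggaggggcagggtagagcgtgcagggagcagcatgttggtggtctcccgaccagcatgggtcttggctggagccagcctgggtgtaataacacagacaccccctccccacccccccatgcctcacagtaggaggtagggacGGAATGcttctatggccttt
Gm33596, in ESC_Neg-63-0, chr17:80809300-80809699, minus strand: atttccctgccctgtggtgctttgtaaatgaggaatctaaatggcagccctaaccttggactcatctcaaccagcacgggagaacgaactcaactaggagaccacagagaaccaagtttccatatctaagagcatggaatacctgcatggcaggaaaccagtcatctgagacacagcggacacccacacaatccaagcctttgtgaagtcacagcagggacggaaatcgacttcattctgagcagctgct
Gm35227, in ESC-Neg-891-0, chr9:62166169-62166568, plus strand: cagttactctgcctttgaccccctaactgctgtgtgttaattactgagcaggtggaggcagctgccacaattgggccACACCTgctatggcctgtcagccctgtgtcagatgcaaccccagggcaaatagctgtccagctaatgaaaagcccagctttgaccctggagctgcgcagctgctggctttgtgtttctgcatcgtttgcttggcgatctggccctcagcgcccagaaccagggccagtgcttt
The coordinates are those of the whole control region. GGAATG stands in 12.6% and AGGTGT in 11.8% of the 32851 RefSeq promoter windows of the same length, so a match in 1 of 4 is a description and nothing is read from it.

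The RNA of these 4 controls was at or below the level of their DNA. Values are CPM, each library's counts scaled to the same total and then scaled over the 15 libraries by edgeR's trimmed mean of M-values (TMM). ESC-Neg-511-0, at the start of the kinase gene Camk1d, had 240.2, 332, 233, 253 and 402 CPM in atrial RNA and 190.5, 241, 247, 198 and 268 CPM in ventricular RNA, against 242, 239, 239.5, 246 and 247 CPM in DNA. RNA and DNA overlapped in both chambers, and neither comparison passed the test (log2 fold change 0.16 ± 0.15 SE in atrium and -0.08 ± 0.11 SE in ventricle). ESC-Neg-541-0, at the start of Dnmt3l, a cofactor of DNA methylation in germ cells and stem cells, had 23.9, 44.6, 21.0, 33.2 and 86.1 CPM in atrial RNA and 63.3, 30.8, 48.4, 42.5 and 58.7 CPM in ventricular RNA, against 75.9, 71.0, 85.3, 69.6 and 74.4 CPM in DNA. It fell in both chambers (log2 -0.95 and -0.63, edgeR adjusted p = 0.0168 and 0.00543), although atrial replicate 5 lay above all DNA libraries. ESC_Neg-63-0 fell by 0.92 and 0.92 on the log2 scale in atrium and ventricle, and ESC-Neg-891-0 fell by 1.32 and 1.26, with every RNA library below every DNA library.

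The libraries differed in ways that bear on the controls. Total counts ran between 877773 and 2369985 in atrial RNA, 1271527 and 3781726 in ventricular RNA and 2312820 and 2958271 in DNA. RNA replicate 1 stood apart in both chambers. The controls took 7.03% of the counts of atrial RNA 1, and 10.2% to 10.7% of those of atrial RNA 2 to 5. They took 7.75% of ventricular RNA 1, 11.6% to 11.9% of ventricular RNA 2 to 5, and 8.78% to 9.34% of the DNA libraries. In replicate 1, 292 controls had no count in atrial RNA and 260 had none in ventricular RNA, against 15 to 21 and 5 to 12 in the other RNA libraries and 222 to 251 in DNA. The whole series of 3820 regions went the same way, with 765 and 700 regions at 0 in atrial and ventricular RNA 1. Those numbers were 71 to 85 and 36 to 66 in the other RNA libraries, and 657 to 731 in DNA. Across the 469 controls tested, atrial and ventricular replicate 1 correlated with each other at r = 0.92 (log2 CPM) but with the mean of replicates 2 to 5 of their own chamber at 0.68 and 0.71, while replicates 2 to 5 correlated among themselves at 0.91 to 0.92 in atrium and 0.94 to 0.96 in ventricle. These r are across regions that share libraries and DNA abundance and describe the libraries only. The counts of calls, the medians by DNA count and the limits set by the controls are therefore given with and without it, the last 2 by a setting added after the data were seen.

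**Figure D1:**
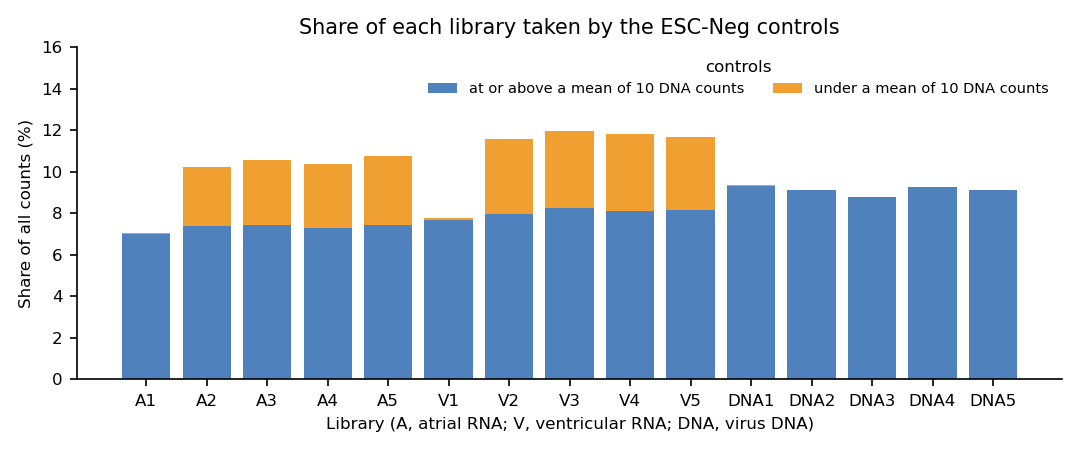
Share of all counts (in percent) taken by the 848 controls in each of the 15 libraries, split at a mean of 10 DNA counts. Controls under that mean took 2.84% to 3.31% of atrial RNA 2 to 5 and 3.54% to 3.75% of ventricular RNA 2 to 5, against 0.0533% and 0.0816% of atrial and ventricular RNA 1 and at most 0.0218% of DNA.

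Not all controls had enough counts in the 5 DNA libraries for a test. A region entered the test when its DNA count averaged 10 or more, and 469 of the 848 controls (55.3%) passed, against 2061 of 2875 regions outside ESC-Neg (71.7%). The other 379 were not tested, and 176 of them had no count in any DNA library. The median control had a mean of 20.9 DNA counts, against 90.4 for the regions outside ESC-Neg. The 2 spellings differed too: 227 of 448 controls spelled ESC_Neg (numbered up to 497) and 242 of 400 spelled ESC-Neg (numbered 498 to 996) were tested, with median DNA counts of 11.4 and 55.1. Of the tested controls, 179 had a mean of 10 to under 100 DNA counts, 115 had 100 to under 300 and 175 had 300 or more.

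Against DNA, the tested controls were spread around the bulk of the library. A log2 fold change here is relative to that bulk, since TMM places the middle of the regions near 0, and the call is an edgeR quasi-likelihood p under 0.05 after Benjamini-Hochberg adjustment over 2601 regions. In atrium, 115 controls were higher and 198 lower than DNA, while over all tested regions 38.4% were called higher and 36.3% lower (74.7% in either direction). Their share called higher was 24.5%, and their median log2 fold change was -0.33 (SD over controls 1.40, 5th to 95th percentile -1.82 to 2.50), against a median of 0.04 over all regions tested. In ventricle, 167 controls were higher and 182 lower, against 43.4% and 37.8% of all tested regions (81.2% in either direction). The median control there was at -0.07 (SD 1.48, 5th to 95th percentile -1.77 to 2.97), against 0.13 over all regions tested. The split in atrium depended on the scaling: with library totals in place of TMM it was 148 higher and 138 lower, with the median of all regions moved up by 0.33. Leaving out RNA replicate 1 left 117 higher and 201 lower in atrium and 168 higher and 189 lower in ventricle, and 303 of 313 atrial calls and 341 of 349 ventricular calls were kept with the same sign.

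The spread between controls was larger than the spread between libraries. The median SD of a control over the 5 libraries, on the log2 CPM scale (prior count 2), was 0.27 in atrium, 0.20 in ventricle and 0.11 in DNA for controls with 300 or more DNA counts, while the SD across those controls of their RNA over DNA was 0.75 in atrium and 0.92 in ventricle. For controls with 10 to under 100 DNA counts the SD over libraries was 0.72 in atrium and 0.46 in ventricle, and 0.52 and 0.35 without replicate 1. In these scarcer controls the SD across controls was 1.43 in each chamber.

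RNA over DNA went down with the abundance of the control in the DNA libraries. In atrium, the median log2 fold change of the controls was 0.77 at 10 to under 100 DNA counts, -0.33 at 100 to under 300 and -0.94 at 300 or more. In ventricle, these medians were 1.05, -0.08 and -0.77. The regions outside ESC-Neg ran the same way, with 1.42, 0.40 and -0.61 in atrium and 1.59, 0.45 and -0.67 in ventricle. In each range and chamber the median of the controls was the lower of the pair. Without RNA replicate 1 the controls' medians were 0.77, -0.29 and -0.95 in atrium and 1.02, -0.16 and -0.83 in ventricle. DNA counts are the denominator of the ratio and also define the ranges, and the part of this in the trend was not tested.

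**Figure D2:**
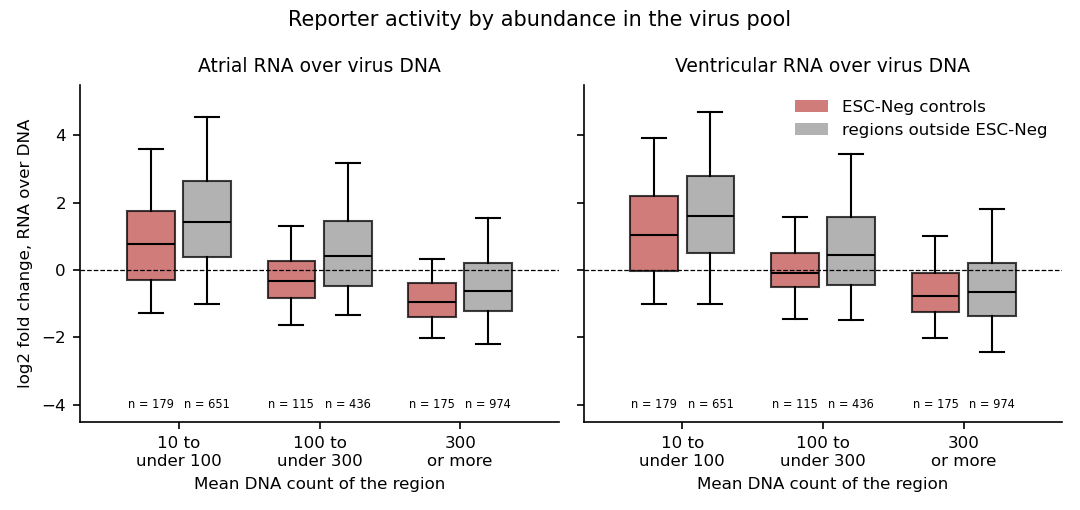
Log2 fold change of RNA over virus DNA (vertical axis) by mean DNA count of the region, for the tested controls (red) and the tested regions outside ESC-Neg (grey), in atrium (left) and ventricle (right). Boxes are quartiles with the median, whiskers the 5th and 95th percentile, and the controls' medians run downward across the ranges, with values of 0.77, -0.33 and -0.94 in atrium and 1.05, -0.08 and -0.77 in ventricle.

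The controls overlapped the candidate regions widely. A limit at the 95th percentile of the controls stood at log2 2.50 in atrium and 2.97 in ventricle, and 232 of the 2061 tested regions outside ESC-Neg (11.3%) lay above it in atrium and 192 (9.32%) in ventricle. Set within ranges of DNA count, the limit was 3.60, 1.31 and 0.34 in atrium from the scarcest to the most abundant range, and 11.4%, 28.0% and 22.1% of the outside regions of the same range lay above it. In ventricle it was 3.93, 1.61 and 1.02, with 12.0%, 23.9% and 11.8% above. Without RNA replicate 1 the limits over all ranges were 2.56 in atrium and 2.83 in ventricle, with 10.9% and 9.61% of the outside regions above. In the scarcest range 8.60% and 9.37% were then above, at limits of 3.90 and 4.16.

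Fewer controls were called higher than DNA in both chambers than were called lower in both. Higher in both were 111 of the 469 (23.7%, against 34.9% of all tested regions), of which 75 were at least 2-fold higher in both. Lower in both were 164 (35.0%, against 31.6% of all), 88 passed in neither (18.8%, against 11.9%), and 6 were lower in atrium and higher in ventricle (1.28%, against 0.884%). Without RNA replicate 1, a setting added after the data were seen, these counts were 111, 166, 76 and 5. The comparisons share the same DNA libraries, so the counts are not independent. Of the 111, replicate 1 was above DNA in both chambers for 84 and below DNA in both for 18. In 55 of them all RNA libraries lay above all DNA libraries in both chambers. The counts of 75, 84, 18 and 55 within the 111 were not made over all tested regions. Nothing particular to the controls is read from them. Separation of all RNA from all DNA libraries, in either direction, was seen for 215 controls in atrium (45.8%, against 60.4% of all tested regions) and for 280 in ventricle (59.7%, against 70% of all).

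Among the controls whose libraries did not overlap, those with the highest RNA over DNA were scarce in the DNA libraries. The highest fold in atrium was that of ESC-Neg-538-0 (chr10:62282762-62283161), inside Hk1, the gene of the glycolytic enzyme hexokinase 1. It had 125, 112, 181, 152 and 116 CPM in atrial RNA and 198, 133, 179, 153 and 140.5 CPM in ventricular RNA, against 12.1, 13.8, 12.9, 10.1 and 16.3 CPM in DNA. All RNA libraries, replicate 1 included, were far above all DNA libraries, by 9.76-fold in atrium and 12.3-fold in ventricle (log2 3.29 ± 0.21 and 3.62 ± 0.18 SE, edgeR adjusted p = 7.19e-09 and 1.01e-11). ESC-Neg-669-0 (chr9:118404916-118405315), 73071 bp from Eomes, a T-box factor of early embryos, had 66.6, 79.7, 63.6, 65.5 and 87.3 CPM in atrial RNA and 69.8, 67.9, 75.2, 63.3 and 53.5 CPM in ventricular RNA, against 10.1, 6.20, 5.84, 9.67 and 11.2 CPM in DNA. Its atrial and ventricular libraries overlapped each other and both stood clear of DNA (log2 2.95 ± 0.25 and 2.92 ± 0.22 SE). The next 6 controls of this kind rose in atrium by log2 2.50 to 2.85: ESC_Neg-406-0 inside Pde4d, a cyclic AMP phosphodiesterase, ESC-Neg-642-0 near Dapl1, ESC_Neg-127-0 near the Slit receptor gene Robo1, ESC_Neg-167-0 inside H2-M5, ESC-Neg-836-0 on chromosome 10 with no coding gene within 100 kb, and ESC-Neg-860-0 inside Nhsl1. In ESC_Neg-167-0 atrial replicate 3, at 124 CPM, was far above the other atrial libraries. In ventricle ESC_Neg-374-0 (chromosome 6, no coding gene within 100 kb) and ESC-Neg-831-0 near the zinc finger gene Zscan5b joined them, at log2 3.39 ± 0.26 and 2.98 ± 0.27 SE. Of these 10, ESC-Neg-538-0 had the most DNA, at a mean of 27.8 counts.

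Some controls that were abundant in the DNA libraries were also above DNA. Of the 175 controls with 300 or more DNA counts, 9 (5.14%) were called higher in atrium and 28 (16%) in ventricle, against 22.5% and 24.5% of the 974 regions outside ESC-Neg in that range. Of the controls, 10 were called at least 2-fold higher in 1 chamber or both (these 10 were picked after their values were seen). The highest in ventricle was ESC-Neg-507-0 (chr11:98926399-98926798), 1202 bp from Rara, the gene of a retinoic acid receptor. It had 477, 562, 692, 524 and 562 CPM in atrial RNA and 1609.7, 1557, 1533, 1423 and 1475 CPM in ventricular RNA, against 308, 299, 276, 276 and 273 CPM in DNA. The 3 groups did not overlap, with ventricle highest and DNA lowest (log2 over DNA 0.87 ± 0.10 SE in atrium and 2.41 ± 0.07 SE in ventricle, edgeR adjusted p = 3.37e-06 and 2.31e-14). ESC_Neg-300-0 (chr15:58478457-58478856), 20855 bp from Fam91a1, had 582, 775, 648, 661 and 617 CPM in atrial RNA and 646, 751, 830.4, 869.7 and 799.7 CPM in ventricular RNA, against 193, 233, 165, 288 and 253 CPM in DNA. Both chambers stood above DNA and overlapped each other (log2 1.43 ± 0.15 and 1.78 ± 0.13 SE).

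ESC_Neg-84-0 (chr9:103000383-103000782), 6479 bp from the prostaglandin transporter gene Slco2a1, also rose in both chambers, by log2 1.15 ± 0.09 SE in atrium and 1.01 ± 0.08 SE in ventricle. The other 7 were 1 control on chromosome 18 and 6 that were at least 2-fold above DNA in ventricle only. The control on chromosome 18, ESC_Neg-405-0, had 7.28, 1105, 1230.1, 1362 and 1522 CPM in atrial RNA and 15.3, 1430.2, 1511, 1534 and 1464 CPM in ventricular RNA, against 233, 219.7, 287, 215 and 219 CPM in DNA, so replicate 1 was far below DNA and the other RNA libraries far above it. The 6 lay by Lmf1, Chrna4, Kalrn, Abcc4, Kcnh1 and Glis3, with ventricular log2 fold changes of 1.04 to 1.58, and in 9 of the 10 ventricular replicate 1 was also above DNA.

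The highest fold changes of all, without the rule that libraries must not overlap, did not hold in replicate 1. The 10 controls with the largest atrial estimates (log2 3.60 to 6.59, picked after their values were seen) all had atrial libraries that overlapped DNA, and replicate 1 was below the DNA mean in 9 of them in atrium and in 8 in ventricle. ESC_Neg-106-0 (chr17:32878797-32879196), 225 bp from the zinc finger gene Zfp870, had 3.12, 3923, 5239, 4493 and 4979 CPM in atrial RNA and 5.82, 5341, 5395, 5692 and 5827 CPM in ventricular RNA, against 28.8, 37.7, 43.8, 38.7 and 30.7 CPM in DNA. Replicates 2 to 5 were far above DNA in each chamber and replicate 1 was under all DNA libraries. The fit over all 5 replicates gave log2 6.59 ± 1.26 SE in atrium (edgeR adjusted p = 0.00128). ESC_Neg-424-0, near Tbca, a tubulin folding cofactor, showed the same split at a mean of 206 DNA counts, with 1.04, 1310.5, 1886, 1564 and 1583 CPM in atrial RNA and 104, 87.7, 119, 80.6 and 93.0 CPM in DNA.

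The controls by Akap9 and Cbln4, named for their ventricular fold change, were of this kind in part. ESC_Neg-21-0, inside the scaffold gene Akap9, had 13.1 CPM in ventricular replicate 1 and 209 to 289 CPM in replicates 2 to 5, against 4.19 to 9.93 CPM in DNA. ESC-Neg-608-0, near the cerebellin gene Cbln4, had 11.6 CPM in ventricular replicate 1 and 128 to 167 CPM in replicates 2 to 5, against 4.67 to 11.4 CPM in DNA. In both, replicate 1 cleared DNA narrowly and the other ventricular libraries by a wide margin. Such splits were counted in both sets: of the 90 controls at least 2-fold above DNA in atrial replicates 2 to 5, 27 (30%) were below DNA in atrial replicate 1, against 44 of 653 regions outside ESC-Neg (6.74%). In ventricle these were 22 of 116 controls (19.0%) and 39 of 679 other regions (5.74%), and 19 controls were among them in both chambers. Of the controls with the split, 24 of 27 in atrium and 17 of 22 in ventricle had under 100 DNA counts, as did 75 of the 90 and 90 of the 116. The difference between the shares was not tested.

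**Figure D3:**
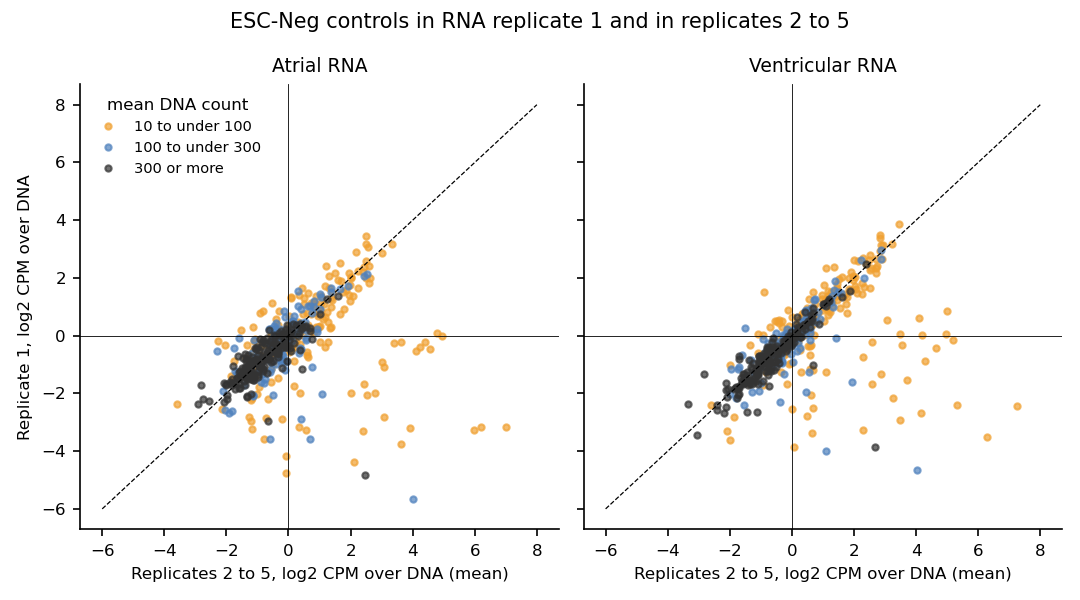
Each point is 1 of the 469 tested controls: its log2 CPM over the DNA mean in RNA replicate 1 (vertical axis) against the mean of replicates 2 to 5 (horizontal axis), in atrium (left) and ventricle (right), coloured by mean DNA count, with the diagonal dashed. The correlation on these axes, across controls that share the DNA mean, was 0.36 in atrium and 0.52 in ventricle (0.18 and 0.26 at 10 to under 100 DNA counts, 0.61 and 0.80 at 300 or more), and the points at the lower right are controls high in replicates 2 to 5 and low in replicate 1, 27 of 90 in atrium and 22 of 116 in ventricle past 2-fold.

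The 379 controls under the filter showed the split in its plainest form and were not tested. In atrial replicates 2 to 5, 348 of them had a count in all 4 libraries, and in ventricular replicates 2 to 5, 363 had one in all 4. In replicate 1 only 96 had a count in atrium and 121 in ventricle. Their median level was 41.5 CPM in atrial and 49.8 CPM in ventricular replicates 2 to 5, against 0.093 CPM in DNA. The 814 regions outside ESC-Neg under the filter ran the same way. Their medians were 25.01 and 28.89 CPM in atrial and ventricular replicates 2 to 5, against 0.195 CPM in DNA. In replicate 1 the median was 0 CPM in each chamber for both sets, so this split in medians is not particular to the controls. The 176 controls with no DNA count took 0.89% to 1.03% of the counts of atrial RNA 2 to 5 and 1.09% to 1.19% of those of ventricular RNA 2 to 5, against 0.00262% and 0.00417% of atrial and ventricular RNA 1.

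The 5 highest of the controls under the filter were far above many tested ones. ESC_Neg-279-0 (chr16:82596450-82596849, no coding gene within 100 kb) had 0, 1119, 1218, 1261 and 1378 CPM in atrial RNA and 0, 1689, 1621, 1687 and 1776 CPM in ventricular RNA, against 0.389, 0.477, 1.17, 1.84 and 0.93 CPM in DNA. It was at 0 in replicate 1 of each chamber, where a count of 0 allows up to 3.12 CPM in atrium and 2.18 CPM in ventricle. ESC_Neg-312-0 near the potassium channel gene Kcns3, ESC-Neg-671-0 on chromosome 12, ESC-Neg-574-0 inside Srrm3, a splicing factor gene, and ESC_Neg-185-0 near the phosphatase gene Dusp12 showed the same order of libraries. In atrial replicates 2 to 5, ESC_Neg-312-0 had 985 to 1316 CPM and ESC_Neg-185-0 had 446 to 589 CPM, with the others between. Each was at 0 in replicate 1 of each chamber and at or under 4.77 CPM in DNA. No fold is given, because the DNA was at a few counts.

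At the other end, several controls gave far less RNA than DNA in every library. ESC_Neg-44-0 (chromosome 18), 26604 bp from Pik3c3, the gene of the class III phosphoinositide 3-kinase, had 78.0, 46.4, 42.1, 49.9 and 84.9 CPM in atrial RNA and 77.8, 44.4, 41.5, 35.1 and 35.1 CPM in ventricular RNA, against 363, 435, 438, 398 and 404 CPM in DNA. ESC-Neg-588-0 (chr1:89927230-89927629), 533 bp from the homeobox gene Gbx2, had 96.7, 61.2, 69.7, 76.0 and 115 CPM in atrial RNA and 42.9, 50.7, 73.1, 40.3 and 63.8 CPM in ventricular RNA, against 492, 471, 523, 409 and 464 CPM in DNA. In both, all RNA libraries were well below all DNA libraries (log2 -2.88 ± 0.20 and -2.60 ± 0.17 SE in atrium, -3.16 ± 0.19 and -3.11 ± 0.15 SE in ventricle). ESC-Neg-595-0, inside the focal adhesion gene Lims2 on chromosome 18, had the lowest atrial value at log2 -3.79 ± 0.41 SE, with 0.61 to 5.20 CPM in atrial RNA against 24.4 to 39.7 CPM in DNA. ESC-Neg-717-0, inside the actin-binding gene Coro1c, was at log2 -2.66 ± 0.30 SE in atrium. ESC_Neg-227-0 on chromosome 7 fell in ventricle (log2 -2.78 ± 0.56 SE) at levels of 0 to 1.11 CPM in ventricular RNA, which are a few counts.

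A control near the middle showed how close RNA and DNA could lie. ESC_Neg-201-0 (chr5:119585405-119585804), 84930 bp from Tbx3, a T-box factor of the heart's conduction system and of stem cells, had 14.6, 29.7, 20.2, 11.9 and 33.0 CPM in atrial RNA and 21.8, 23.1, 27.7, 19.6 and 13.3 CPM in ventricular RNA, against 25.7, 26.2, 22.2, 16.1 and 20.5 CPM in DNA. The 3 groups overlapped, and no comparison passed the test (log2 -0.12 ± 0.31 SE in atrium and -0.07 ± 0.25 SE in ventricle). Another control picked for its median ventricular value, ESC-Neg-510-0, 3130 bp from the receptor gene Notch1, was level with DNA in ventricle (log2 -0.07 ± 0.14 SE) and below it in atrium (-0.84 ± 0.17 SE). The third, ESC_Neg-400-0 inside Tnfaip8 on chromosome 18, was near DNA by its average only, since ventricular replicate 1 had 93.1 CPM and replicates 2 to 5 had 11.3 to 24.97 CPM.

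Between the chambers, most of the controls that passed the test were higher in ventricle. Of the 469 tested, 15 were called higher in atrium and 57 higher in ventricle, or 3.20% and 12.2%, against 15.8% and 15.1% of all tested regions (30.9% in either direction). Their median log2 fold change of atrium over ventricle was -0.13 (SD over controls 0.46), against 0.03 (SD 0.59) over all tested regions. The 5 atrial and 5 ventricular libraries did not overlap for 53 controls (11.3%), against 23% of all tested regions. The lean toward the ventricle is relative to the bulk of the regions: scaled on the controls themselves, 30 were higher in atrium and 31 higher in ventricle, with a median of 0.02 and the median of all regions moved up by 0.15. Leaving out replicate 1 of both chambers left 18 higher in atrium and 45 higher in ventricle, with 53 of the 72 calls kept at the same sign, and leaving out ventricular replicate 2 alone left 11 and 38, while leaving out ventricular replicate 1 alone left 12 and 41.

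The controls that differed between chambers stood on either side of DNA. Of the 57 controls higher in ventricle, 44 were above DNA in ventricle and 9 below it, and 16 were above DNA in atrium and 19 below it. Of the 15 higher in atrium, 12 were below DNA in ventricle and 3 were above DNA in atrium. Among the 164 controls lower than DNA in both chambers, 8 were higher in atrium and 9 higher in ventricle. Over all tested regions, whether or not they differed between chambers, 43.4% were above DNA in ventricle and 37.8% below it. For atrium these shares were 38.4% and 36.3%. The comparisons share RNA libraries, and the same counts were not made for the other regions, so nothing particular to the controls is read from them. By range of DNA count, 16 of 179, 16 of 115 and 40 of 175 controls were called in either direction, from the scarcest to the most abundant range. These are 8.94%, 13.9% and 22.9%, against 21.0%, 33.5% and 44.0% of the regions outside ESC-Neg in the same ranges, so the share called went up with the DNA count in both sets.

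**Figure D4:**
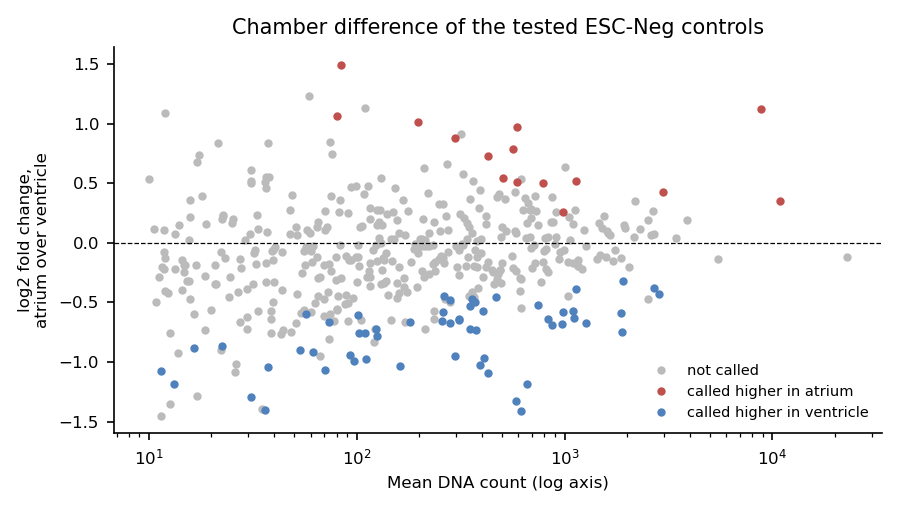
Log2 fold change of atrium over ventricle (vertical axis) against the mean DNA count (horizontal log axis) of the 469 tested controls, with the 15 called higher in atrium in red, the 57 called higher in ventricle in blue and the rest in grey. The controls called higher in ventricle reach down to log2 -1.41 and occur at all DNA counts. Of the 15 called higher in atrium, 11 have 300 or more DNA counts, as do 274 of the 390 regions outside ESC-Neg called higher in atrium.

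The largest called difference toward the ventricle was that of ESC-Neg-507-0 near Rara, whose values stand above. Its ventricular RNA was 2.66 times its atrial RNA (log2 of atrium over ventricle -1.41 ± 0.10 SE, edgeR adjusted p = 3.7e-08), and without replicate 1 of both chambers the log2 value was -1.33. ESC-Neg-864-0 (chr17:25589591-25589990), inside the lipase maturation factor gene Lmf1, had 204, 292, 253, 263 and 230.1 CPM in atrial RNA and 658, 573, 616, 621 and 689.9 CPM in ventricular RNA, against 282, 263, 272, 251 and 288 CPM in DNA. Ventricular RNA was above both other groups, and atrial RNA overlapped DNA (atrium over ventricle log2 -1.33 ± 0.12 SE, edgeR adjusted p = 3.85e-07). ESC-Neg-598-0 (chr2:181042216-181042615), inside Chrna4, a nicotinic receptor subunit gene, had 283, 253, 304, 343 and 260.0 CPM in atrial RNA and 632, 641, 731, 639.6 and 676 CPM in ventricular RNA, against 316, 276, 339, 310.5 and 309.8 CPM in DNA. The pattern was that of ESC-Neg-864-0, with ventricle alone above DNA (log2 -1.18 ± 0.11 SE, edgeR adjusted p = 5.38e-07).

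**Figure D5:**
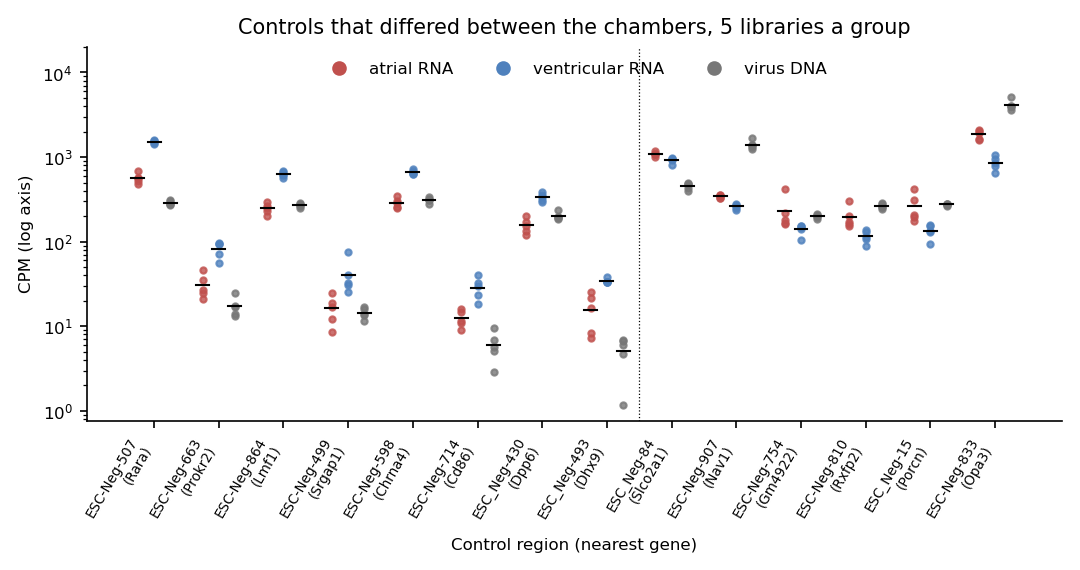
CPM (log axis) in each of 5 atrial RNA (red), 5 ventricular RNA (blue) and 5 DNA libraries (grey), with bars at the group means. Shown are the 8 controls most shifted to the ventricle (left of the dotted line) and the 6 higher in atrium (right). Both sets were taken among the controls called between chambers whose atrial and ventricular libraries did not overlap. Ventricular RNA lies above DNA in all 8 on the left, and 5 of the 6 on the right have ventricular RNA below DNA.

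ESC_Neg-430-0 (chr5:27421212-27421611), inside Dpp6, the gene of an accessory subunit of potassium channels, had 155, 134, 203, 169.5 and 121 CPM in atrial RNA and 389, 353, 340.2, 312 and 298 CPM in ventricular RNA, against 196, 193, 239.5, 185 and 196 CPM in DNA. Ventricular RNA was above all other libraries and 4 of the 5 atrial libraries were below all DNA libraries (atrium over ventricle log2 -1.09 ± 0.16 SE, edgeR adjusted p = 6.84e-05). ESC-Neg-663-0, near the prokineticin receptor gene Prokr2, reached log2 -1.40 ± 0.28 SE at lower levels, with 20.8 to 46.0 CPM in atrial RNA and 56.0 to 95.3 CPM in ventricular RNA, against 13.3 to 24.5 CPM in DNA. The remaining 3 of the 8 lost their call when libraries were left out. ESC-Neg-499-0 inside Srgap1 (log2 -1.29) and ESC-Neg-714-0 inside Cd86 (log2 -1.18) lost it without ventricular replicate 1 (edgeR adjusted p = 0.0737 and 0.0545). ESC_Neg-493-0 near the helicase gene Dhx9 (log2 -1.07) lost it in 8 of the 10 fits that leave out 1 library, all but those without atrial replicate 3 or 4 (edgeR adjusted p up to 0.0712).

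Toward the atrium 6 controls passed the test with libraries that did not overlap. That count was not made over all tested regions, so nothing particular to the controls is read from it. With overlap left aside, 3.20% of the tested controls and 15.8% of all tested regions were called higher in atrium. ESC-Neg-833-0 (chr7:19244631-19245030), inside Opa3, the gene of a mitochondrial protein, had 1643, 1948, 2094, 1588 and 2017 CPM in atrial RNA and 648, 792, 959, 852 and 1052 CPM in ventricular RNA, against 4063, 3919, 5193, 3572 and 4034 CPM in DNA. Atrial RNA was 2.18 times ventricular RNA, and both were below every DNA library (atrium over ventricle log2 1.13 ± 0.13 SE, edgeR adjusted p = 9.32e-06). ESC_Neg-15-0 (chrX:8219450-8219849), 13101 bp from Porcn, which acylates Wnt proteins, had 309, 422, 195, 174 and 207 CPM in atrial RNA and 93.1, 135, 154, 131 and 159 CPM in ventricular RNA, against 266, 283, 279.8, 269 and 281 CPM in DNA. Atrial RNA overlapped DNA and ventricular RNA was below it (log2 0.97 ± 0.24 SE, edgeR adjusted p = 0.00649). ESC-Neg-810-0 near the relaxin family receptor gene Rxfp2 and ESC-Neg-907-0 inside the neuron navigator gene Nav1 were also called below DNA in both chambers, with atrium the higher of them (log2 0.79 ± 0.20 and 0.42 ± 0.11 SE). In ESC-Neg-810-0 atrial replicate 1, at 304 CPM, lay above DNA, which had 245 to 289.8 CPM, and the atrial call against DNA was lost without DNA 2 or DNA 3. That call was also lost with library totals, with scaling on the controls and at a mean of at least 100 DNA counts (edgeR adjusted p up to 0.567).

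ESC_Neg-84-0 near Slco2a1 alone of the 6 was above DNA in both chambers. It had 1091, 1179.7, 1087, 1089 and 999 CPM in atrial RNA and 974, 944, 922, 948 and 809 CPM in ventricular RNA, against 432, 483, 398, 491 and 483 CPM in DNA. Its chamber difference was small (log2 0.26 ± 0.08 SE, edgeR adjusted p = 0.0183) and lost its call without atrial replicate 2 or ventricular replicate 3 or 5 (adjusted p up to 0.0544). The call was also lost with library totals and at a mean of at least 100 DNA counts (edgeR adjusted p up to 0.0823). ESC-Neg-754-0 near Gm4922 (log2 0.73 ± 0.25 SE) had 423 CPM in atrial replicate 2 and at most 219 CPM in the others, and without that library its log2 value was 0.39 (adjusted p = 0.124). Its call was also lost without atrial replicate 4 or without any single ventricular replicate.

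The 6 controls called lower than DNA in atrium and higher in ventricle lie in or near Slc2a3, Dpp6, F10, Gtf2ird1, Mesd and Nppc. ESC_Neg-238-0 (chr6:122770411-122770810), inside the glucose transporter gene Slc2a3, had 651, 842, 773, 788 and 623 CPM in atrial RNA and 1254, 1238, 1326, 1288 and 1157 CPM in ventricular RNA, against 933, 846, 973, 785 and 881 CPM in DNA. Ventricular RNA was above all DNA libraries, and 3 of the 5 atrial libraries were below them all (atrium over ventricle log2 -0.75 ± 0.09 SE, edgeR adjusted p = 1.68e-05). The chamber difference held in every fit that leaves out 1 library for each of the 5 that were named by the rule, but the signs against DNA did not. With library totals, or with scaling on the controls, none of the 5 kept the lower call in atrium. ESC_Neg-238-0, ESC_Neg-430-0 and ESC_Neg-88-0 (near Mesd, a chaperone of LDL receptor relatives) lost the atrial call without single DNA libraries, among them DNA 1 and DNA 3 in each (adjusted p up to 0.0907), ESC_Neg-430-0 and ESC_Neg-88-0 also without DNA 2 or DNA 5. ESC-Neg-858-0 (inside F10, coagulation factor X) and ESC-Neg-645-0 (inside Gtf2ird1) lost the ventricular call without ventricular replicate 1 (adjusted p = 0.0969 and 0.329) and without ventricular replicate 2 or 5, and ESC-Neg-645-0 also without ventricular replicate 3 or DNA 1, 4 or 5.

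By position, 361 of the 848 controls (42.6%) were inside a coding gene, against 52.3% of the regions outside ESC-Neg, and 106 had no coding gene within 100 kb. Exons and introns were not told apart. For the 813 with a start site in the reference, the median distance to it was 45.4 kb, with 118 within 10 kb and 3 within 1 kb. The 218 tested controls inside genes and the 251 outside had medians of -0.37 and -0.25 in atrium and of -0.08 and -0.04 in ventricle. There were 9 pairs of controls within 5 kb of each other, and 3 pairs had both members tested. In the pair on chromosome 17, 2180 bp apart, ESC-Neg-946-0 and ESC_Neg-428-0 were at log2 -1.08 and -1.63 in atrium and -0.65 and -1.56 in ventricle. The pair on chromosome 18 had opposite signs: ESC-Neg-641-0 and ESC-Neg-971-0 were at 1.74 and -1.25 in atrium and 2.16 and -0.47 in ventricle. ESC_Neg-210-0 and ESC_Neg-281-0, on chromosome 6, were at 0.84 and 0.02 in atrium and 1.54 and 0.29 in ventricle.

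Nearness to stem cell and heart genes was counted on lists of 35 pluripotency and 40 cardiomyocyte genes. The nearest gene is an address here and no statement of what a region regulates. Of the 20 regions of the whole series nearest to a pluripotency gene, 15 were controls, by 13 genes, and of the 57 regions nearest to a cardiomyocyte gene, 2 were. In the whole series, 848 of the 3820 regions were controls. Of the 11 tested controls by pluripotency genes, 2 were higher and 3 lower than DNA in atrium, 4 were higher and 3 lower in ventricle, and 1 differed between chambers (higher in ventricle). The shares over all 2601 tested regions were 38.4% above DNA and 36.3% below it for atrium, 43.4% above and 37.8% below for ventricle, 15.8% higher in atrium and 15.1% in ventricle, and nothing particular to the list is read from its counts. The median of the 11 was -0.07 in atrium and -0.03 in ventricle. With the nearest start site in place of the nearest gene body, 16 of 28 regions were controls (and 0 of 59 by cardiomyocyte genes), and the 11 tested ones had 2 higher and 4 lower in atrium and 4 higher and 5 lower in ventricle.

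The controls nearest to Pou5f1, the gene of OCT4, went different ways. ESC_Neg-428-0 (chr17:35490349-35490748), 15484 bp from the gene, had 665, 589.8, 477, 568 and 479 CPM in atrial RNA and 517, 488, 548, 623 and 556 CPM in ventricular RNA, against 1618, 1516, 1850.1, 1441 and 1628 CPM in DNA. All RNA libraries were far below DNA (log2 -1.63 ± 0.11 and -1.56 ± 0.09 SE). ESC_Neg-391-0 (chr17:35499007-35499406), 6826 bp from it, had 174, 125, 157, 159 and 104 CPM in atrial RNA and 216, 254, 196, 185 and 239 CPM in ventricular RNA, against 123, 109, 121, 124 and 130.2 CPM in DNA. Ventricular RNA cleared both other groups (ventricle over DNA log2 0.84 ± 0.12 SE, atrium over ventricle -0.58 ± 0.17 SE, edgeR adjusted p = 0.0154), and with scaling on the controls the chamber call was lost.

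ESC_Neg-402-0, 20130 bp from Foxd3, a forkhead factor of stem cells and neural crest, was the highest control of the list and was named after its values were seen. It had 57.2, 64.8, 59.6, 52.2 and 59.2 CPM in atrial RNA and 55.3, 67.2, 62.9, 62.2 and 65.5 CPM in ventricular RNA, against 10.9, 11.9, 12.3, 11.1 and 6.05 CPM in DNA. Both chambers stood clear of DNA (log2 2.38 ± 0.24 and 2.59 ± 0.21 SE) at a mean of 22.2 DNA counts. ESC-Neg-629-0, inside Esrrb, the gene of a nuclear receptor of the pluripotent state, had 67.6, 88.6, 60.5, 45.1 and 53.7 CPM in atrial RNA and 104, 89.6, 97.4, 72.9 and 73.0 CPM in ventricular RNA, against 175, 152, 213, 159.8 and 163 CPM in DNA. RNA was below DNA in every library (log2 -1.55 ± 0.19 and -0.98 ± 0.14 SE). ESC_Neg-159-0 near Klf5 and ESC_Neg-10-0 near Tdgf1 passed in no comparison, with atrial log2 fold changes of 0.18 ± 0.16 and -0.34 ± 0.24 SE.

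Of the 2 controls by cardiomyocyte genes, ESC-Neg-527-0, 1899 bp from Tnni1, the slow skeletal troponin I gene that is active in the fetal heart, had 161, 63.6, 79.4, 202 and 104 CPM in atrial RNA and 129, 251, 149.8, 169 and 101 CPM in ventricular RNA, against 179, 165, 211, 161 and 184 CPM in DNA. The groups overlapped, and the atrial fold change (log2 -0.66 ± 0.27 SE, edgeR adjusted p = 0.0387) lost its call in 8 of 10 fits that leave out 1 library, all but those without atrial replicate 1 or 4 (adjusted p up to 0.125). ESC-Neg-692-0, near the T-box gene Tbx5, had no DNA count, 2.08 CPM in atrial RNA 1 and 29.8 to 40.3 CPM in atrial RNA 2 to 5, and was not tested.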

How the data were processed

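The counts are whole-number counts per region, as deposited by the authors in 1 table and in a file per library, which held the same values. Per the submitters' processing notes, cutadapt 2.5, Bowtie2 2.3.4.3 and mm10 were used. Per the labels' protocols, the copying primer held a unique molecular identifier, but no source says whether the deposited counts are molecules or reads. Limits from 0 counts (3 counts of the library total) cover counting error only.

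Regions with a mean of at least 10 DNA counts in the 5 DNA libraries (2601 of 3820) were tested with edgeR 4.0.16 (R 4.3.3): TMM factors, robust quasi-likelihood fit on the 5 and 5 libraries compared, and Benjamini-Hochberg adjustment over all 2601, with a call at an adjusted p under 0.05. Log2 CPM used a prior count of 2. The nearest coding gene and promoter windows came from RefSeq tables of GRCm38.p6. CPM ratios use factors over all 15 libraries, which puts atrial ratios 0.10 above the fitted log2 values at the median.

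Controls named are the 8 highest and 4 lowest against DNA in each chamber and the 8 highest and 8 lowest between chambers, among those that passed with libraries that did not overlap. They also include up to 5 called in opposite directions, up to 4 a gene list, 3 at the ventricular median and the 5 highest under the filter. The members and lists were chosen with earlier results of these data known.

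Same-numbered atrial and ventricular libraries deviated together from their group means (r = 0.82 for number 1 and 0.23 to 0.24 for the others). Number 1 is part of each group mean, and its departure is shared by the chambers, so it also enters the r of the others. These r therefore cannot show whether the other numbers pair the chambers, and the replicate number was used as a block in an alternative fit only. With DNA the r lay between -0.03 and 0.06. Alternatives were other scalings, filters and fits (DESeq2 1.42.0, limma 3.58.1), a replicate block and leaving libraries out. The procedure was run on counts simulated from the same kind of fit, with no replicate that departs from the others. That run cannot show how the calls behave with the replicate 1 seen here. Sequences of the regions other than promoter windows were not used here. The values of 1 control of the gene lists are not reported here.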

Additional observations from a re-analysis of the deposited data

Results flagged for a closer look

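In groups of 5 libraries, a library was picked out when its gap to the nearest other exceeded Dixon's limit of 0.710 of the group's range, which chance does in about 1 in 20 groups. Of 144 such groups of named controls, 19 (13.2%) held one, and in 13 of the 19 it was replicate 1. Many of these controls were named by their values in these same libraries, so the 19 and the 13 cannot be set against the chance rate. The 13 include groups of the 5 controls named as the highest under the filter, each with replicate 1 the lowest in ventricle.

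Replicate 1 was the lowest for the share of counts in the controls (7.03% in atrium, 7.75% in ventricle) and for the median log2 CPM over DNA of the tested controls (-0.38 in atrium, against -0.24 to -0.23 in the other atrial libraries, and -0.31 in ventricle, against -0.09 to -0.01). It was the highest for controls at 0 counts (292 in atrium, 260 in ventricle). It was at 0 CPM in both chambers for ESC_Neg-279-0, ESC_Neg-312-0, ESC-Neg-671-0 and ESC_Neg-185-0, and in ventricle for ESC-Neg-574-0. Ventricular replicate 1 was lowest for ESC-Neg-608-0 (11.6 CPM) and ESC-Neg-754-0 (104 CPM), and highest for ESC_Neg-44-0 (77.8 CPM) and ESC_Neg-400-0 (93.1 CPM).

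Other libraries stood out for single controls. Atrial replicate 3 was highest for ESC_Neg-167-0 (124 CPM) and atrial replicate 2 for ESC-Neg-754-0 (423 CPM). Ventricular replicate 5 was highest for ESC_Neg-374-0 (132 CPM) and ESC_Neg-493-0 (38.2 CPM). DNA 3 was highest for ESC_Neg-430-0 (239.5 CPM) and ESC_Neg-10-0 (100.5 CPM).

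The 6 controls called lower than DNA in atrium and higher in ventricle had a tested chamber difference. The log2 of atrium over ventricle was -0.75 for ESC_Neg-238-0, -1.09 for ESC_Neg-430-0, -0.59 for ESC-Neg-858-0, -0.64 for ESC-Neg-645-0, -0.68 for ESC_Neg-88-0 and -0.67 for ESC_Neg-399-0 near Nppc, with edgeR adjusted p of 1.68e-05 to 0.00688.

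Controls with no count in any DNA library took on average 0.948% of the counts of atrial RNA 2 to 5 and 1.15% of those of ventricular RNA 2 to 5.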

How the results depend on the processing

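Scaling, the filter on DNA counts and the fit moved some results for the controls. With library totals, the median log2 fold change was 0.0059 in atrium over DNA and 0.15 in ventricle over DNA. With scaling on the controls, it was 0.078 in atrium over DNA (130 lower), 0.063 in ventricle over DNA and 0.016 in atrium over ventricle (30 higher, 31 lower). With no filter, 435 were higher in atrium (median 1.10, SD 4.07) and 488 in ventricle (median 1.47, SD 4.22), and 33 were lower in atrium over ventricle (SD 0.63). At a mean of at least 100 DNA counts, fewer controls were tested, with 63 higher and 120 lower in atrium (median -0.24, SD 0.90), and 100 higher and 116 lower in ventricle (SD 1.01). Over atrium against ventricle, DESeq2 and the fit on all 15 libraries each gave 23 higher, and limma voom a median of -0.16. The fit on all 15 libraries gave an atrial median of -0.22.

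With the replicate block, the median of atrium over ventricle was -0.15, with 17 higher and 64 lower, and no named chamber call changed. Against DNA, where same-numbered libraries did not deviate together, it left 99 higher and 203 lower in atrium and 158 higher and 187 lower in ventricle. Leaving out 1 library at a time left 109 to 117 higher and 170 to 201 lower in atrium (median -0.32 to -0.22, SD 1.37 to 1.46). It left 151 to 168 higher and 169 to 195 lower in ventricle (median -0.15 to -0.06, SD 1.46 to 1.52), and 11 to 15 higher and 38 to 58 lower in atrium over ventricle (median -0.16 to -0.10, SD 0.46 to 0.50).

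At the 90th percentile of the controls, 18.9% of the regions outside ESC-Neg lay above it in atrium and 15.7% in ventricle, and at the 99th percentile 2.28% and 1.84%. Within DNA ranges the shares above the 95th percentile were 28.0% and 22.1% in atrium at 100 to under 300 and at 300 or more DNA counts, and 12.0%, 23.9% and 11.8% in ventricle from the scarcest range up. The controls named gave 2248 values with the call unchanged, 113 that lost the call and 26 that gained one. In 3 more, a control called in the main fit changed sign. These were ESC_Neg-238-0 in atrium over DNA (0.037 with scaling on the controls, 0.061 at a mean of at least 100 DNA counts) and ESC-Neg-858-0 in ventricle over DNA (-0.0046 with no filter). A change of sign in a value not called in the main fit was not counted apart. Some such values did change sign between fits, as for ESC-Neg-499-0 in atrium over DNA (log2 -0.15 to 0.47). The causes were not tested. A DNA count near 10 leaves wide errors, and a control with 0 counts in replicate 1 is known there only to within 3.12 CPM in atrium and 2.18 CPM in ventricle.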
